A study of Mus musculus with 6 samples.

Results

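The cytochrome P450 genes outside the CYP4 family were described in the kidneys of Hspa8 knockout and wild-type mice. They were taken by symbol: all genes named Cyp and a number, without the CYP4 family, without Cyp51, Cyp27b1 and Cyp24a1, and without pseudogene symbols. The rule used no measured value. It found 76 of the 34714 genes listed, out of 100 symbols that start with Cyp and a number.

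RNA was sequenced from 3 kidney samples labelled as Hspa8 knockout and from 3 kidney samples labelled as wild-type, whose titles name the strain C57. All 6 came from mice 8 weeks old on normal chow, without diabetes. Per the labels' protocols, the animals obtained were Hspa8 flox/flox mice of a C57BL/6J line and Cdh16-Cre mice from 1 supplier, and C57BL/6J mice from another. The Cdh16 promoter drives Cre in kidney tubule epithelium, so cells outside the tubules would keep the gene. In which tubule segments Hspa8 was lost cannot be read from whole kidney, and cells of the proximal tubule may have kept it. Which alleles the sequenced knockout mice carried is not stated, and stock, Cre and floxed allele cannot be told apart from the loss of Hspa8. The series asks how Hspa8, which encodes the chaperone HSC70, bears on the activation of the sterol regulators called SREBPs. Levels are in FPKM, which divides fragments by transcript length and by library total, so levels of different genes can be set side by side. The depth of the libraries is unknown.

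Cytochromes P450 are haem enzymes that put oxygen from air into fatty compounds. Most sit in the endoplasmic reticulum and take electrons from the reductase POR, while a few sit in mitochondria and take them from ferredoxin. In the kidney, chiefly in the proximal tubule, they turn over drugs, arachidonic acid, sterols and retinoic acid, and several mouse kidney P450 genes are known to respond to androgens.

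The labels were checked first. Hspa8 (chromosome 9, 40801276 to 40805202) had 650, 699 and 781 FPKM in knockout kidneys, against 1058, 1092 and 1318 FPKM in wild-type kidneys, and a log2 fold change of -0.70 (standard error 0.122, adjusted p = 0.866 by limma). The groups did not overlap. Xist stayed at or under 0.0241 FPKM and the Y-linked Ddx3y ran from 11.7 to 17.7 FPKM in knockout and 10.7 to 14.3 FPKM in wild-type kidneys. Knockout replicate 2 and wild-type replicate 3 stood highest on the first principal component, which held 47.5% of the variance, so counts were also taken without this pair.

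Few of the 76 genes were transcribed at a high level. Means over the 6 libraries reached 100 FPKM for 5 genes, lay from 10 to under 100 FPKM for 9 and from 1 to under 10 FPKM for 9. Another 29 had a mean above 0 and under 1 FPKM, and 24 were listed at 0 in all 6 libraries. Together the 76 genes summed to 2264, 2255 and 2457 FPKM in knockout replicates 1, 2 and 3, and to 2357, 2287 and 1879 FPKM in wild-type replicates 1, 2 and 3. The groups overlapped, and wild-type replicate 3 was the lowest library. The mean sum was 2325 ± 114 FPKM in knockout and 2175 ± 258 FPKM in wild-type kidneys (SD, n = 3 each), a log2 ratio of 0.10. The sum was 0.541% to 0.644% of all FPKM in knockout and 0.451% to 0.579% in wild-type libraries. Cyp2e1 alone held 39.3% to 45.2% of the sum in knockout and 34.8% to 44.0% in wild-type kidneys, and the 12 highest genes held 96.5% to 97.8% in each library.

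**Figure D1:**
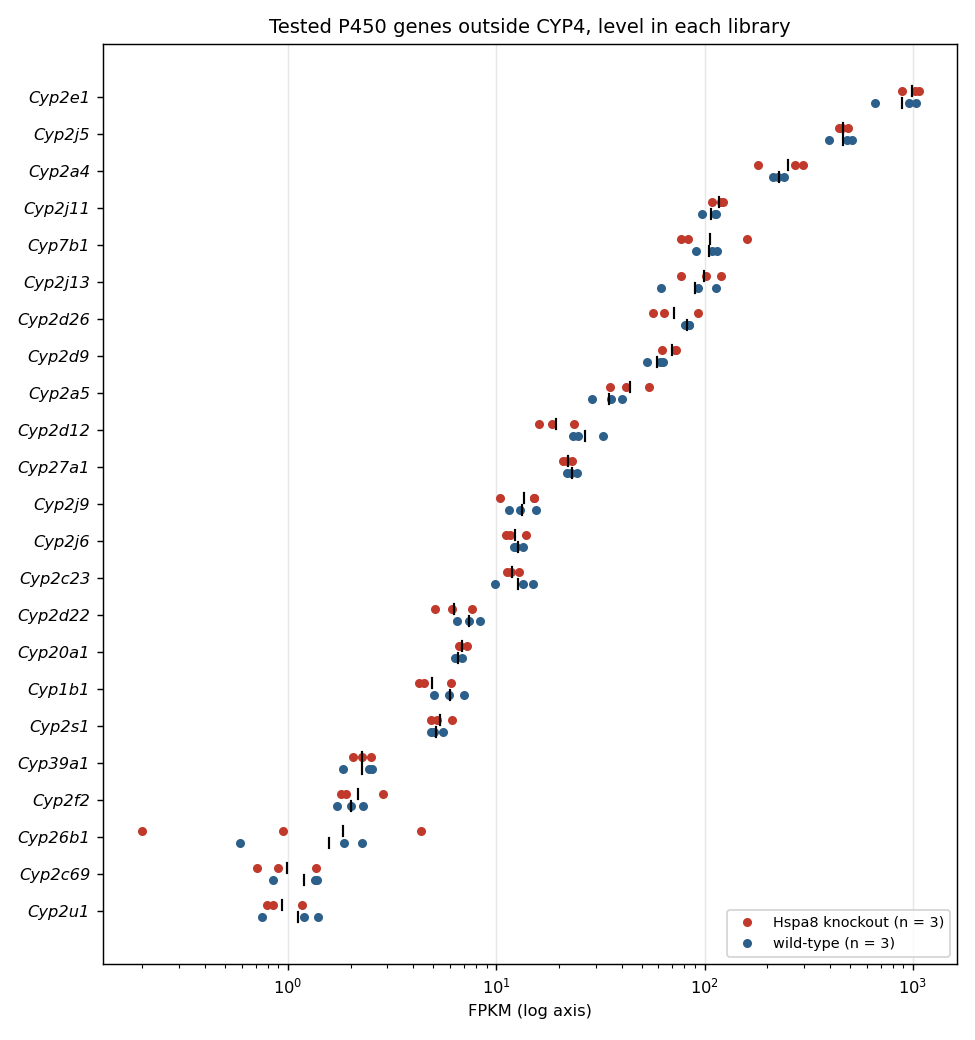
Level of each of the 23 tested genes in each library, in FPKM on a log axis, with knockout points (n = 3) above wild-type points (n = 3) and a black tick at each group mean. Genes run from Cyp2e1 at the top to Cyp2u1 at the bottom, and for every gene the points of the groups overlap.

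Start regions of the 3 highest genes, Cyp2e1, Cyp2j5 and Cyp2a4, and of Cyp2a5, the near-copy of Cyp2a4, are shown because these genes carried most of the level and because the near-copies differed in level. They are RefSeq sequences of GRCm38.p6, from 250 bases before the annotated start to 50 after it, written 5′ to 3′ along the gene. Capitals mark TATAAA (the TATA box), GTTAAT (an arm of the site of the tubule and liver factor HNF1) and AGGTCA (an arm of nuclear receptor sites), each sought on both strands. Of 32851 such windows in the genome, 13.6% held TATAAA, 7.1% GTTAAT and 16.3% AGGTCA.
Cyp2e1, chr7:140763569-140763868, plus strand: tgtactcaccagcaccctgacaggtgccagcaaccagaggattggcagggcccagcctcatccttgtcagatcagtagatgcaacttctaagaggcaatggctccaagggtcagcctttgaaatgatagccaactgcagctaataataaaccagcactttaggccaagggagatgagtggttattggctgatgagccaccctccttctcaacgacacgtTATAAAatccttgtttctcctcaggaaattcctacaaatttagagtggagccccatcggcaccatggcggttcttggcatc
Cyp2j5, chr4:96664070-96664369, minus strand: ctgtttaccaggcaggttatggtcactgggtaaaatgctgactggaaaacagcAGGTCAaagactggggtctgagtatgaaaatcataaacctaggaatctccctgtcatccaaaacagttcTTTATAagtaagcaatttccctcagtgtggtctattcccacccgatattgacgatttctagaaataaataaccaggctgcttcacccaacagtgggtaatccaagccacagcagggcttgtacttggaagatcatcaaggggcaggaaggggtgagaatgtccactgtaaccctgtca
Cyp2a4, chr7:26306942-26307241, plus strand: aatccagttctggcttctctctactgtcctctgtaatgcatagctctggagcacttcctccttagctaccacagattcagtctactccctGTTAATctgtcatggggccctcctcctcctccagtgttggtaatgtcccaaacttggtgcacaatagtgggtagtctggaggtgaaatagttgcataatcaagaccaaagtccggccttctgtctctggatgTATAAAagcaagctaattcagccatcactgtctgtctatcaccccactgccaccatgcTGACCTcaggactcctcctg
Cyp2a5, chr7:26835089-26835388, plus strand: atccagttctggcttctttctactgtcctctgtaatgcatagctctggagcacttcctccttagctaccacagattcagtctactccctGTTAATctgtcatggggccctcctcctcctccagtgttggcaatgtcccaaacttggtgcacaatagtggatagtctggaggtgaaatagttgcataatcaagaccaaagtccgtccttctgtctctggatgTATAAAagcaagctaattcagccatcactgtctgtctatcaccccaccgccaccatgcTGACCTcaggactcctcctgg
TATAAA began at base -31 in Cyp2e1, -28 in Cyp2a4 and -29 in Cyp2a5, counted from the annotated start, and its reverse complement lay at -128 in Cyp2j5. GTTAAT began at -160 in Cyp2a4 and -161 in Cyp2a5. AGGTCA began at -197 in Cyp2j5, and its reverse complement at 31 in Cyp2a4 and 30 in Cyp2a5. Aligned, the windows of Cyp2a4 and Cyp2a5 had 294 bases in common, 5 mismatches and 2 gap bases. Each of these matches describes letters and no binding was measured. RefSeq entries matched 62 of the 76 genes, among them 17 of the 23 tested ones.

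Neighbouring genes of a cluster differed widely in level. The Cyp2j genes on chromosome 4 (96042660 to 96664171, 7 genes) had 5 members over 1 FPKM, with Cyp2j13 and Cyp2j5 at its ends and Cyp2j8 and Cyp2j12 under 1 FPKM between them. Of 8 Cyp2d genes on chromosome 15 (82370527 to 82794452), Cyp2d22, Cyp2d9, Cyp2d12 and Cyp2d26 were over 1 FPKM. The chromosome 7 group (25802469 to 27158564, 13 genes of Cyp2a, Cyp2b, Cyp2f, Cyp2g, Cyp2s and Cyp2t) had 4 over 1 FPKM and 5 listed at 0 in all libraries. Of the 14 Cyp2c genes on chromosome 19 (39006940 to 40187286), which are known chiefly from liver and gut, Cyp2c69 alone reached a mean of 1 FPKM and 7 were listed at 0. Of the 8 clustered Cyp3a genes on chromosome 5 (145345149 to 146114978) none reached 1 FPKM and 5 were listed at 0. Of the 50-base stretches of Cyp3a41a and Cyp3a41b, 98.6% and 93.5% stand in some other gene in GENCODE M21, so a listed 0 there is uncertain.

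**Figure D2:**
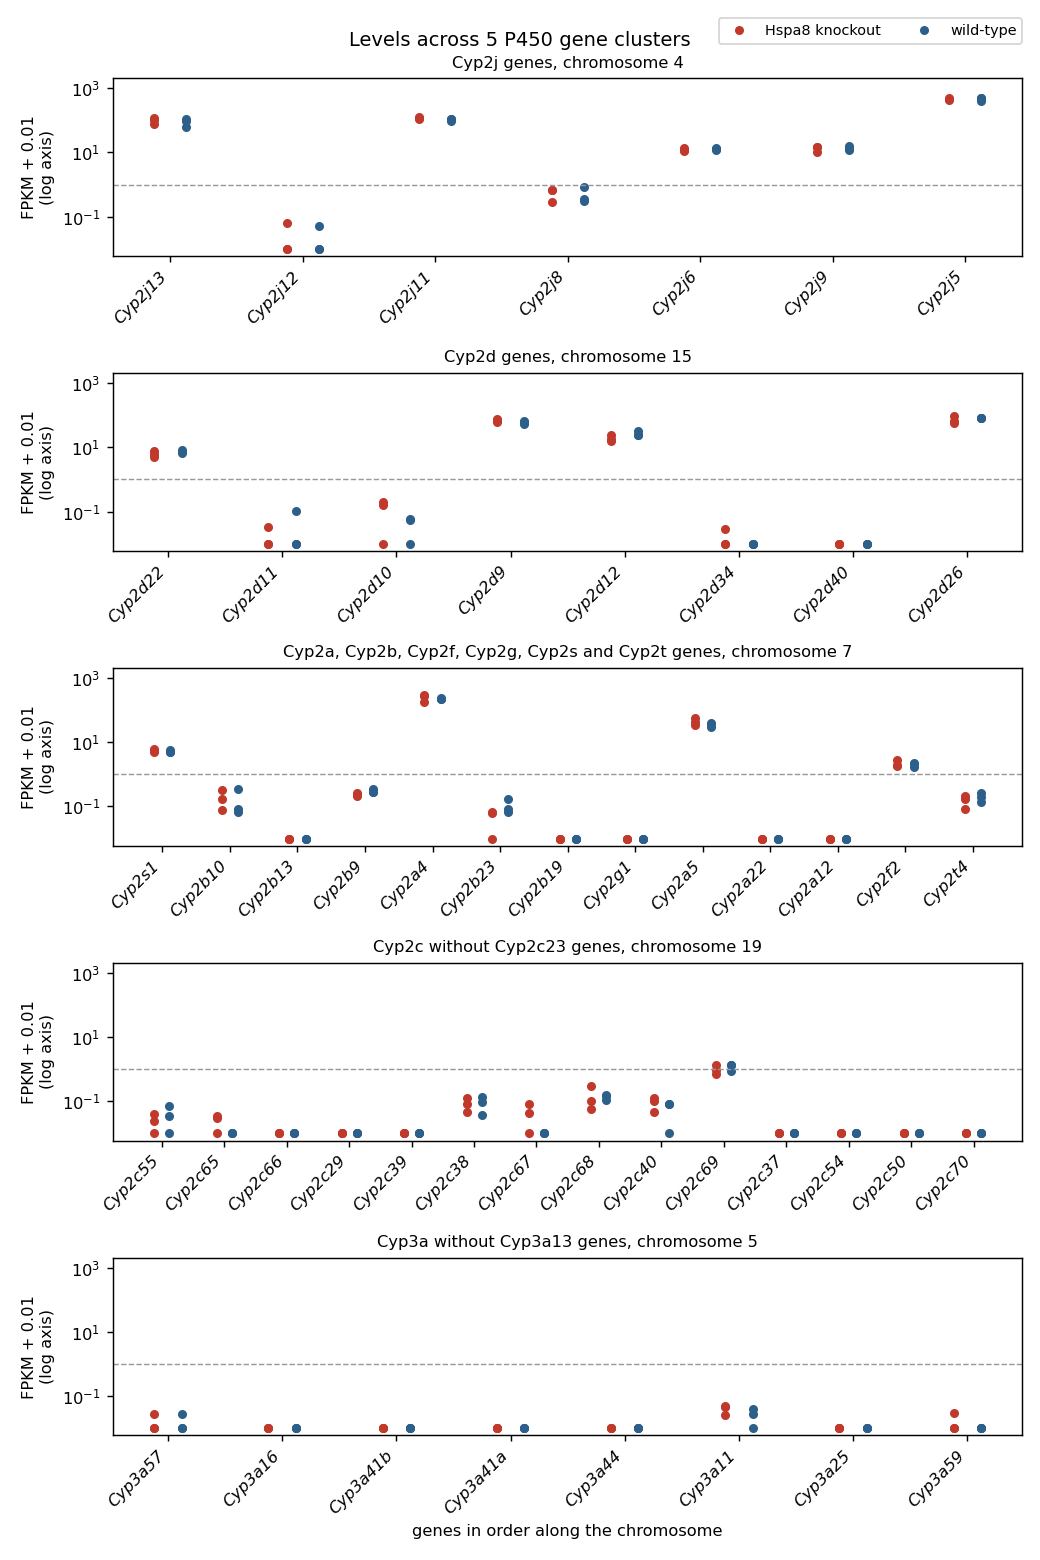
FPKM plus 0.01 on a log axis for each gene of 5 clusters, in order along the chromosome, with knockout points left and wild-type points right (n = 3 each) and a dashed line at 1 FPKM. Genes over the line stand next to genes at the floor, and Cyp2c69, at 0.711 to 1.37 FPKM in knockout and 0.853 to 1.38 FPKM in wild-type kidneys, straddles it.

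The comparison of knockout with wild-type kidneys asked whether loss of Hspa8 moved any of these genes. Of the 76 genes, 23 had a mean of at least 1 FPKM and were tested. Tests used limma on log2(FPKM + 1) over 12174 genes with Benjamini-Hochberg adjustment. 0 of 23 passed at an adjusted p under 0.05, as did 0 of 12174 genes (0.0%), and the smallest adjusted p of the 23 was 0.941. At an unadjusted p under 0.05, 0 of 23 were higher in knockout, beside 0.953% of all genes, and 1 was lower, beside 4.21%, which makes 1 of 23 in either direction (4.35%), beside 5.17%. For 0 of the 23 genes did the 3 knockout values all lie above or all below the 3 wild-type values, beside 10.6% of all genes (2.01% higher and 8.57% lower). The log2 fold changes ran from -0.45 to 0.32 with 11 above 0 (47.8%) and 12 below, beside 35.1% of all genes above 0. Where library medians were equalised 13 of 23 were above 0, beside 54.1% of all genes, so counts by direction here and in the partner lists depend on the scaling. Their median was -0.00046, beside -0.0399 over all genes tested. The 6 red cell markers summed to 77.6 to 553 FPKM in knockout and 52.1 to 59.8 FPKM in wild-type kidneys, and the 6 perirenal adipocyte markers to 32.8 to 44.0 FPKM in knockout and 45.3 to 69.6 FPKM in wild-type kidneys. Of the adipocyte markers only Car3 lay apart, at 30.9 to 40.4 FPKM in knockout and 43.6 to 50.4 FPKM in wild-type kidneys, and the other 5 overlapped. The part of these markers in the P450 values was not tested. In whole tissue, fewer cells of a type and less RNA per cell cannot be told apart, here or in any result that follows. Without knockout replicate 2 and wild-type replicate 3, a choice made after seeing the data, 0 of 23 passed, and with 2 samples in each group 2 genes lay apart higher (Cyp20a1 and Cyp2d9) and 3 lower (Cyp1b1, Cyp2j6 and Cyp7b1), beside 6.55% and 31.5% of all genes.

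**Figure D3:**
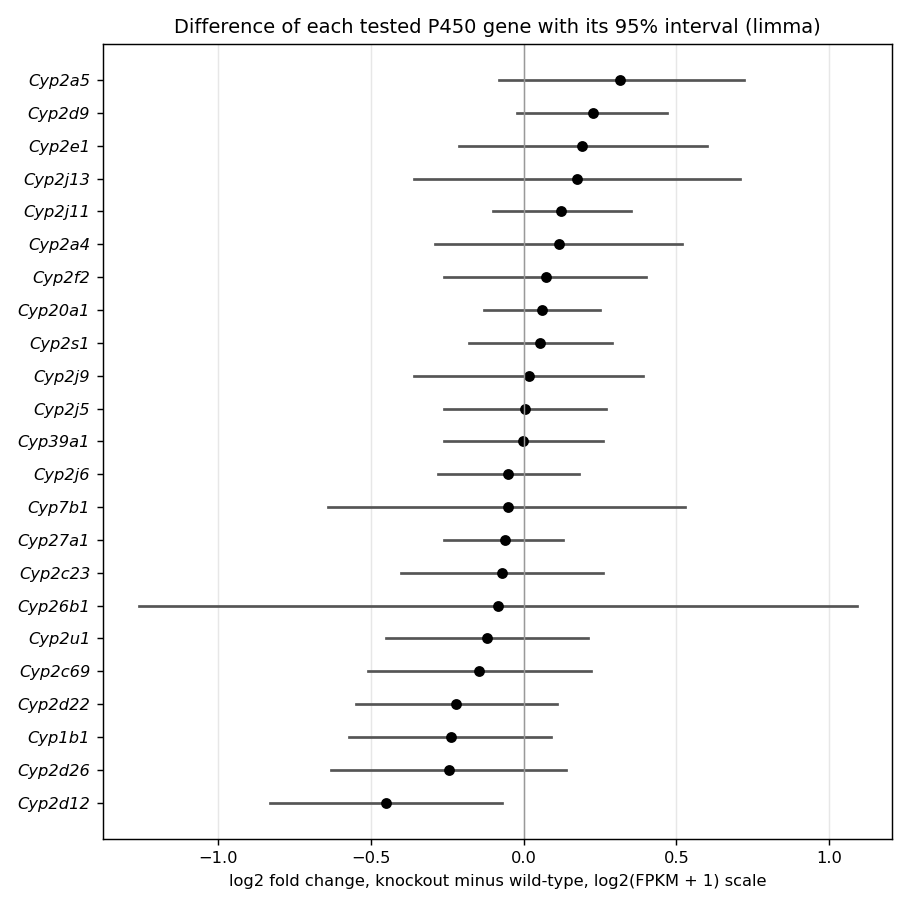
Log2 fold change of each tested gene, knockout minus wild-type on the log2(FPKM + 1) scale, as a point with its 95% interval from limma. The interval of Cyp2d12 lies below 0, from -0.83 to -0.07, before any adjustment for the number of genes, and the other 22 intervals hold 0.

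Cyp2e1 (chromosome 7, 140763819 to 140774990), the enzyme that oxidises ethanol, acetone and small solvents, was the highest gene. It had 1022, 885 and 1064 FPKM in knockout replicates 1, 2 and 3, against 1037, 954 and 654 FPKM in wild-type replicates 1, 2 and 3. Wild-type replicate 3 lay far below the other libraries, which overlapped. Its log2 fold change was 0.19 with a 95% interval of -0.21 to 0.60 (limma adjusted p = 0.998), and it was -0.01 without wild-type replicate 3. Differences up to the ends of that interval could not be told from 0 with these samples.

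The CYP2J enzymes turn arachidonic acid into epoxides that act on tubule transport and vessels. Cyp2j5 (chromosome 4, 96627432 to 96664171), the main form of the mouse proximal tubule, had 457, 441 and 488 FPKM in knockout kidneys, against 509, 483 and 396 FPKM in wild-type kidneys. Knockout values lay inside the wild-type range. The log2 fold change was 0.00 with an interval of -0.26 to 0.27. Cyp2j11 had 108, 123 and 120 FPKM in knockout and 112, 113 and 96.8 FPKM in wild-type kidneys, an overlap with a log2 fold change of 0.12 (-0.10 to 0.35). Cyp2j13 had 102, 77.1 and 120 FPKM in knockout kidneys, against 113, 93.3 and 62.1 FPKM in wild-type kidneys. Its spread, 1.93-fold from lowest to highest library, was wider than that of Cyp2j5 (1.29-fold), and the log2 fold change was 0.18 (-0.36 to 0.71). Cyp2j9 had 15.2, 15.2 and 10.4 FPKM in knockout kidneys, against 11.5, 13.0 and 15.5 FPKM in wild-type kidneys. The groups overlapped, with a log2 fold change of 0.02 (-0.36 to 0.39). Cyp2j6 averaged 12.3 ± 1.44 FPKM in knockout and 12.7 ± 0.589 FPKM in wild-type kidneys (SD, n = 3 each). Cyp2c23, the gene also called Cyp2c44 and the main epoxygenase of the CYP2C family in mouse kidney, averaged 11.9 ± 0.788 FPKM in knockout and 12.8 ± 2.67 FPKM in wild-type kidneys, with a log2 fold change of -0.07 (-0.40 to 0.26). Cyp2u1, which hydroxylates the end of fatty acid chains, had 0.791, 0.849 and 1.17 FPKM in knockout kidneys, against 1.40, 0.756 and 1.19 FPKM in wild-type kidneys, and the groups overlapped.

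Among 11 genes of eicosanoid metabolism outside the P450 symbols 8 were tested, 0 passed, with 2 log2 fold changes above 0 and 6 below. The 2 with the smallest p were Ptgis, prostacyclin synthase, at 1.26 ± 0.176 FPKM in knockout and 1.60 ± 0.316 FPKM in wild-type kidneys, and Ptgs1, cyclooxygenase 1, at 5.22 ± 0.454 FPKM in knockout and 5.84 ± 0.381 FPKM in wild-type kidneys (SD, n = 3 each).

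The CYP2A genes are near-copies that hydroxylate testosterone (Cyp2a4) and coumarin (Cyp2a5). Cyp2a4 (chromosome 7, 26307192 to 26315088) had 181, 273 and 296 FPKM in knockout kidneys, against 212, 226 and 241 FPKM in wild-type kidneys. Knockout replicate 1 was the lowest library and knockout replicates 2 and 3 the highest, so the knockout values enclosed the wild-type ones. Cyp2a5 (chromosome 7, 26835339 to 26843264) had 35.2, 41.9 and 54.3 FPKM in knockout kidneys, against 35.5, 40.0 and 28.7 FPKM in wild-type kidneys, and overlapped too. The log2 fold changes were 0.12 (-0.29 to 0.52) for Cyp2a4 and 0.32 (-0.08 to 0.72) for Cyp2a5. Leaving out 1 library moved Cyp2a5 between 0.15, without knockout replicate 3, and 0.46, without knockout replicate 1. In GENCODE M21, 36.1% of the 50-base stretches of Cyp2a4 transcripts also stand in Cyp2a5 and 28.1% of those of Cyp2a5 in Cyp2a4, so how the authors' counting split shared reads is uncertain. Their sum depends less on that split and was 217, 315 and 351 FPKM in knockout kidneys, against 247, 266 and 269 FPKM in wild-type kidneys. The level of Cyp2a4 was 5.15 to 6.52 times that of Cyp2a5 in knockout and 5.64 to 8.38 times in wild-type libraries, although the start regions printed above differ at few bases.

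The CYP2D genes are the family of human CYP2D6 and of many drug and steroid hydroxylations. Among them were the tested genes of smallest limma p on each side, Cyp2d12 (lower in knockout) and Cyp2d9 (higher). Cyp2d12 (chromosome 15, 82555043 to 82559413) had 23.5, 18.5 and 16.0 FPKM in knockout replicates 1, 2 and 3, against 23.3, 24.7 and 32.4 FPKM in wild-type replicates 1, 2 and 3. Knockout replicate 1 overlapped with wild-type replicate 1. Its log2 fold change was -0.45 (standard error 0.164, limma p = 0.0251, adjusted p = 0.941), an exact permutation test gave p = 0.2, and it did not pass. Cyp2d26 (chromosome 15, 82790107 to 82794452) had 92.8, 64.2 and 56.5 FPKM in knockout kidneys, against 80.2, 83.9 and 84.0 FPKM in wild-type kidneys. Knockout replicate 1 was above, and the other knockout libraries were below, all wild-type libraries. Its log2 fold change was -0.25 (-0.63 to 0.14), and it was -0.45 without knockout replicate 1 and -0.10 without knockout replicate 3. Cyp2d22 had 7.62, 6.11 and 5.06 FPKM in knockout and 6.46, 7.43 and 8.36 FPKM in wild-type kidneys, with an overlap and a log2 fold change of -0.22 (-0.55 to 0.11), which was -0.35 without knockout replicate 1, -0.10 without knockout replicate 3 and -0.14 without wild-type replicate 3. Cyp2d9 (chromosome 15, 82452377 to 82456827), known as a male testosterone hydroxylase of mouse liver, leaned the other way. It had 62.6, 73.1 and 72.5 FPKM in knockout kidneys, against 52.7, 61.4 and 63.3 FPKM in wild-type kidneys, and only knockout replicate 1 fell within the wild-type range. Its log2 fold change was 0.23 (-0.02 to 0.47, limma adjusted p = 0.973). The groups of Cyp2d9 did not overlap where library sums, medians or quantiles were equalised, and it passed in none of these. Of the 50-base stretches of Cyp2d9 transcripts 21.8% stand in some other gene, most often Cyp2d12 (6.76%), so reads shared in this cluster may also be split unevenly.

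Without knockout replicate 1, 4 genes lay apart higher (Cyp2a4, Cyp2a5, Cyp2d9 and Cyp2j11) and 3 lower (Cyp2d12, Cyp2d22 and Cyp2d26) of 23, beside 4.36% and 12.7% of all genes in that setting. In that setting 6 of the 23 (26.1%) had an unadjusted p under 0.05, beside 3.90% of all genes, and 0 passed (smallest adjusted p = 1.0, limma). Both CYP2A genes and all 4 tested CYP2D genes were among these 7. Other libraries moved some of them too: Cyp2d12 also lay apart lower without wild-type replicate 1, and Cyp2d9 apart higher without wild-type replicate 3. The share at an unadjusted limma p under 0.05 was highest without knockout replicate 1. It was 4.35% of the tested P450 genes with all 6 libraries, and 0.0% to 8.7% without any 1 other library. Over all genes, leaving out any 1 other library gave 3.64% to 7.21%.

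Of 6 genes for P450 enzymes of cholesterol, oxysterol and bile acids 3 were tested and 0 passed. Cyp7b1 (chromosome 3, 18071944 to 18243890), the oxysterol 7-alpha-hydroxylase, had 77.2, 159 and 82.8 FPKM in knockout kidneys, against 91.0, 108 and 115 FPKM in wild-type kidneys. Knockout replicate 2 was the highest library and the other knockout libraries the lowest. The log2 fold change was -0.05 with a wide interval of -0.64 to 0.53, and it was -0.38 without knockout replicate 2. Cyp27a1 (chromosome 1, 74713148 to 74737897), the mitochondrial sterol 27-hydroxylase, was among the steadiest genes at 23.2, 21.9 and 21.0 FPKM in knockout and 21.8, 22.8 and 24.5 FPKM in wild-type kidneys. Its interval ran from -0.26 to 0.13. Cyp39a1, a 7-alpha-hydroxylase of 24-hydroxycholesterol, had 2.05, 2.26 and 2.50 FPKM in knockout kidneys, against 2.45, 2.54 and 1.85 FPKM in wild-type kidneys, with an interval of -0.26 to 0.26. Cyp46a1, the cholesterol 24-hydroxylase, lay under the filter at 0.748, 1.05 and 0.615 FPKM in knockout and 0.729, 1.29 and 0.931 FPKM in wild-type kidneys. These groups overlapped as well. Cyp8b1, the sterol 12-alpha-hydroxylase of bile acid synthesis, stayed at or under 0.0536 FPKM, and Cyp7a1, its rate-limiting enzyme, was listed at 0 in all 6 libraries. Cyp2r1, a vitamin D 25-hydroxylase, had 0.732, 0.747 and 0.800 FPKM in knockout and 0.871, 0.761 and 0.539 FPKM in wild-type kidneys and was not tested.

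Of 10 other enzymes of oxysterol and bile acid handling 8 were tested, 7 with a log2 fold change above 0 and 1 below, and 0 passed. Hsd3b7, the next enzyme after the sterol 7-alpha-hydroxylases, had 7.68, 7.17 and 7.26 FPKM in knockout kidneys, against 8.85, 7.91 and 9.80 FPKM in wild-type kidneys. Its groups did not overlap (log2 fold change -0.23, limma adjusted p = 0.960), beside 8.57% of all genes apart lower. Hsd17b4, a peroxisomal enzyme of side-chain shortening, averaged 98.8 ± 9.23 FPKM in knockout and 84.9 ± 14.5 FPKM in wild-type kidneys (SD, n = 3 each).

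Steroid hormone P450 genes were near or at 0. Cyp11b1, Cyp11b2, Cyp19a1 (aromatase) and Cyp21a1 were listed at 0 in all libraries. Cyp11a1, which cuts the cholesterol side chain, reached at most 0.0400 FPKM and Cyp17a1, the 17-alpha-hydroxylase, at most 0.0922 FPKM. The 6 adrenal cortex markers summed to 2.64 to 3.69 FPKM in knockout and 2.98 to 5.06 FPKM in wild-type kidneys. Most of that sum was Akr1b7 and Star, while the defining markers Nr5a1 and Mc2r stayed at or under 0.0128 and 0.0693 FPKM.

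The CYP26 enzymes inactivate retinoic acid. Cyp26b1 (chromosome 6, 84571414 to 84593908) had the widest spread of the 23 genes, 21.9-fold from lowest to highest library. It had 4.37, 0.944 and 0.199 FPKM in knockout replicates 1, 2 and 3, against 1.86, 2.28 and 0.591 FPKM in wild-type replicates 1, 2 and 3. The highest and the lowest library were both knockout, and the log2 fold change was -0.08 with an interval of -1.26 to 1.09. Cyp26a1 had 0.507, 0.286 and 0.136 FPKM in knockout and 0.332, 0.418 and 0.474 FPKM in wild-type kidneys, and Cyp26c1 at most 0.0735 FPKM. Of 12 other retinoid genes 6 were tested and 0 passed, 2 with a log2 fold change above 0 and 4 below. Dhrs3, which turns retinal back into retinol, averaged 46.3 ± 9.57 FPKM in knockout and 53.5 ± 5.13 FPKM in wild-type kidneys, and Aldh1a1, which makes retinoic acid, 2.26 ± 0.576 FPKM in knockout and 1.91 ± 0.190 FPKM in wild-type kidneys (SD, n = 3 each).

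The CYP1 genes are targets of the aryl hydrocarbon receptor AHR. Cyp1b1 (chromosome 17, 79706940 to 79715061), known from vessel and connective tissue cells, had 4.51, 6.04 and 4.26 FPKM in knockout kidneys, against 5.96, 5.03 and 6.98 FPKM in wild-type kidneys. The groups overlapped, and the log2 fold change was -0.24 (-0.57 to 0.09). It was -0.37 without knockout replicate 2, -0.16 without knockout replicate 3 and -0.14 without wild-type replicate 3. The 8 endothelial markers summed to 70.5 to 87.3 FPKM in knockout and 94.3 to 123 FPKM in wild-type kidneys, with 6 of 8 apart lower. The 8 fibroblast and mural markers summed to 53.9 to 66.3 FPKM in knockout and 62.4 to 102 FPKM in wild-type kidneys, with 2 of the 7 tested apart lower. Of all genes tested 8.57% lay apart lower, a share that was 4.97% where library medians were equalised. The part of both marker lists in the Cyp1b1 values was not tested. Cyp1a1 had 0.265, 0.270 and 0.327 FPKM in knockout and 0.357, 0.404 and 0.274 FPKM in wild-type kidneys, and Cyp1a2 had a value above 0 in 1 library, at 0.0184 FPKM. Of 4 other AHR targets 2 were tested and 0 passed. Nqo1, a quinone reductase that NRF2 also induces, averaged 40.7 ± 4.48 FPKM in knockout and 34.8 ± 3.83 FPKM in wild-type kidneys, and Tiparp 9.81 ± 1.56 FPKM in knockout and 10.8 ± 0.769 FPKM in wild-type kidneys (SD, n = 3 each).

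The other tested genes were Cyp20a1, an orphan with no settled substrate, Cyp2s1, Cyp2f2 and Cyp2c69. Cyp20a1 had the narrowest spread of the 23 genes, 1.14-fold, at 6.63, 6.73 and 7.26 FPKM in knockout and 6.36, 6.41 and 6.87 FPKM in wild-type kidneys. Cyp2s1 averaged 5.39 ± 0.652 FPKM in knockout and 5.15 ± 0.381 FPKM in wild-type kidneys, and Cyp2f2, known from airway cells, 2.18 ± 0.582 FPKM in knockout and 2.00 ± 0.288 FPKM in wild-type kidneys (SD, n = 3 each). Cyp2c69 had 1.37, 0.711 and 0.896 FPKM in knockout and 1.38, 1.35 and 0.853 FPKM in wild-type kidneys, and 46.5% of its 50-base stretches also stand in Cyp2c40. The filter passed Cyp2u1 at a mean of 1.02 FPKM and left out Cyp46a1 at 0.895 FPKM.

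The Cyp2b and Cyp3a genes, drug-metabolising genes best known from liver, were low. The 5 Cyp2b genes summed to 0.327 to 0.533 FPKM in knockout and 0.408 to 0.674 FPKM in wild-type kidneys, and the 9 Cyp3a genes to 0.186 to 0.258 FPKM in knockout and 0.136 to 0.310 FPKM in wild-type kidneys. Cyp2b9 had 0.205, 0.249 and 0.223 FPKM in knockout, against 0.270, 0.278 and 0.331 FPKM in wild-type kidneys, without overlap but under the filter. Where no filter was used, 6.78% of all genes lay apart lower. Alb, a marker of liver, stayed between 1.83 and 2.62 FPKM in knockout and between 1.43 and 2.17 FPKM in wild-type kidneys. Ttr, Serpina1a and Apoa2 had higher means than Alb, and Apoa1 and Fgb had lower ones. Ahsg was listed at 0 in all libraries. The 7 liver markers listed summed to 111 to 137 FPKM in knockout and 102 to 166 FPKM in wild-type kidneys. Most of that sum was Ttr, at 90.1 to 103 FPKM in knockout and 76.7 to 128 FPKM in wild-type kidneys.

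No gene of the partner lists passed. Of 8 electron partners tested 0 passed, 3 with a log2 fold change above 0 and 5 below. The 2 with the smallest p were Fdx1, the ferredoxin of the mitochondrial enzymes, at 52.8 ± 4.87 FPKM in knockout and 56.4 ± 2.43 FPKM in wild-type kidneys, and the haem-binding Pgrmc1, at 101 ± 1.54 FPKM in knockout and 106 ± 3.12 FPKM in wild-type kidneys (SD, n = 3 each). Pgrmc1 alone of the 8 had groups apart, lower in knockout, beside 8.57% of all genes apart lower. Por, the reductase, averaged 122 ± 8.35 FPKM in knockout and 115 ± 6.78 FPKM in wild-type kidneys. Of 12 haem genes 0 passed, 3 with a log2 fold change above 0 and 9 below. Hmox1, haem oxygenase 1, averaged 18.8 ± 1.92 FPKM in knockout and 22.9 ± 2.55 FPKM in wild-type kidneys, with a limma adjusted p of 0.960, and Ppox, protoporphyrinogen oxidase, 17.3 ± 1.48 FPKM in knockout and 19.8 ± 2.84 FPKM in wild-type kidneys. Of 17 tested receptors and factors that regulate P450 genes 0 passed. Nfe2l2, which encodes NRF2, had 33.4, 34.6 and 35.1 FPKM in knockout kidneys, against 41.7, 38.4 and 37.1 FPKM in wild-type kidneys, without overlap and with a limma adjusted p of 0.973. Nr1h2, the sterol receptor LXR beta, averaged 27.6 ± 0.710 FPKM in knockout and 30.2 ± 2.37 FPKM in wild-type kidneys. Its groups did not overlap either (adjusted p = 0.998, limma). Of the 17 factors tested these 2 lay apart lower, beside 8.57% of all genes.

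The pair of libraries that stood highest on the first principal component was also looked at by gene. The share of P450 genes lowest in this pair was near that of all genes, and the difference was not tested. The lowest libraries of Cyp2e1, Cyp2j5, Cyp2j13, Cyp2f2 and Cyp2c69 were knockout replicate 2 and wild-type replicate 3, in either order, which held for 5 of 23 genes (21.7%), beside 15.2% of all genes tested. Among 6 markers of the early proximal tubule 3 were also lowest in that pair (Slc34a1, Lrp2 and Cubn), and Slc5a2, Slc5a12 and Slc6a19 were not. Among 6 markers of the late proximal tubule 4 were highest in it (Slc22a7, Slc22a13, Aqp1 and Slc6a18). Slc7a13 and Slc5a8, also late markers, were instead lowest in knockout replicate 1 and wild-type replicate 3, in either order. The share of all genes highest in the pair was not counted. The early markers summed to 2590, 1888 and 2209 FPKM in knockout and 2461, 2369 and 2075 FPKM in wild-type replicates 1, 2 and 3, most of it Slc34a1. The late markers summed to 894, 1263 and 1119 FPKM in knockout and 1060, 1101 and 1096 FPKM in wild-type replicates 1, 2 and 3. Of 5 genes known to be higher in male mouse kidney, Slco1a1 and Odc1 were lowest in the pair and Kap was highest in it, at 33214, 42143 and 30598 FPKM in knockout and 36662, 37355 and 42280 FPKM in wild-type kidneys. Their part in the P450 values was not tested.

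**Figure D4:**
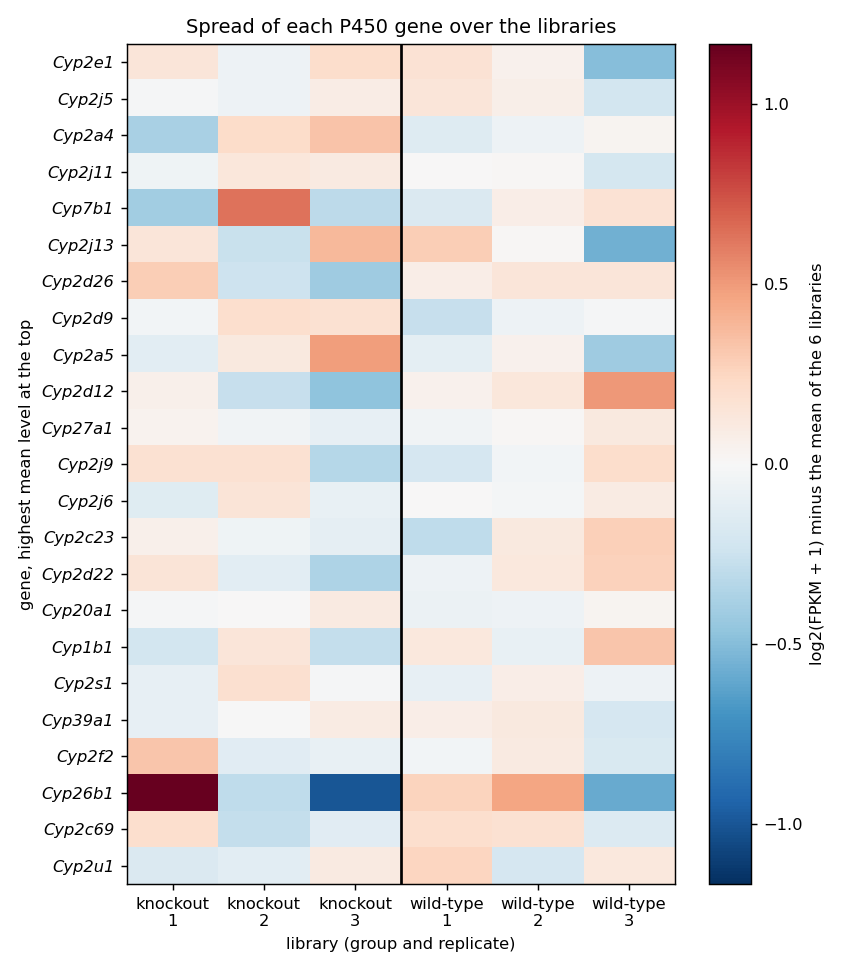
Log2(FPKM + 1) minus the mean of the 6 libraries for each tested gene (rows, highest level at the top) in each library (columns, knockout left and wild-type right), red above and blue below the mean. Cyp26b1 spans the widest range, and Cyp2e1, Cyp2j5 and Cyp2j13 are lowest in wild-type replicate 3.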

How the data were processed

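RNA was sequenced from 6 mouse kidney samples. The deposited table holds the authors' FPKM for each gene in each library. Per the submitters' processing notes it rests on GRCm38, also called mm10. Its aligner, quantifier and annotation: not given in the sources used here. Groups follow the genotype label, and knockout columns were tied to titles by the letters A8 and the replicate number. No label states separate animals per sample, so a p-value here reflects spread among samples that could be technical. FPKM hold no read totals, so depth is unknown and no interval that needs it is given. No 2 libraries held the same value for any gene above 0.

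Genes with a mean of at least 1 FPKM went into limma 3.58.1 (R 4.3.3) on the log2(FPKM + 1) scale (group as the only term, variance trend, two-sided, Benjamini-Hochberg over 12174 genes, threshold 0.05), a test also checked on simulated data. Fold changes on this scale understate those of low genes. The simulated noise was drawn for each gene alone, so it held no spread shared by the genes of a library. For 1 gene, an exact permutation test of 3 against 3 cannot go below p = 0.1. Coordinates are RefSeq's on GRCm38.p6, which matched all 76 symbols. Figures used matplotlib 3.10.9. Genes named with values are the 12 highest, the 6 of smallest p on each side, those with groups apart and those with a textbook substrate, and of each of 7 partner lists the 2 with the smallest p; Cyp2j6, Cyp2c23, Cyp2s1, Cyp2f2, Cyp2b9, Por, Alb and the markers of cell type and sex were added after their values were seen. The members and lists were chosen with earlier results of these data known.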

Additional observations from a re-analysis of the deposited data

How the results depend on the processing

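Under all 15 alternatives, 14 planned and 1 chosen after seeing the data, 0 P450 genes passed with limma (smallest adjusted p 0.667 to 1.0). The count of genes with groups apart moved. Without a filter 2 were lower (Cyp2b9 and Cyp2b23, beside 6.78% of all genes). With library sums, medians or quantiles equalised 1 was higher (Cyp2d9, beside 3.64%, 4.97% and 4.35%). Leaving out 1 library gave 0 to 4 higher and 0 to 3 lower: 4 and 3 without knockout replicate 1 (beside 4.36% and 12.7% of all genes), 3 lower without knockout replicate 2 (23.9%), 2 lower without wild-type replicate 1 (13.9%), 1 lower without wild-type replicate 2 (14.3%) and 2 higher without wild-type replicate 3 (4.05%). Leaving out knockout replicate 2 with wild-type replicate 3 gave 2 higher and 3 lower. The median log2 fold change was 0.0504 with medians and 0.0433 with quantiles equalised, -0.0414 without that pair, and -0.0261 to 0.0396 without 1 library. Hspa8 ran from -0.77 to -0.60 and the summed P450 level from 0.00197 to 0.159 (log2 ratio) without 1 library.

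No gene that changed direction had passed. Cyp39a1 turned to 0.00 with a pseudocount of 0.1, to 0.03, 0.05 and 0.06 with sums, medians and quantiles equalised, and ran from -0.10 to 0.06 without 1 library. Without 1 library Cyp2j9 ran from -0.08 to 0.19, Cyp7b1 from -0.38 to 0.14, Cyp26b1 from -0.69 to 0.39, Cyp2a4 from -0.02 to 0.33, Cyp2j5 from -0.10 to 0.08, Cyp2e1 from -0.01 to 0.32 and Cyp2j13 from -0.06 to 0.36. Cyp2j5 was -0.07 without the pair. The cause was not tested.

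With the replicate block 0 genes passed (smallest adjusted p 1.0) and the median stayed at -0.00046. Deviations of same-numbered libraries correlated at 0.307, -0.215 and -0.321. So few values cannot show whether same-numbered libraries were paired. Depth is unknown, which limits genes under 1 FPKM most.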

Other observations

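The ratio of Cyp2d9 to Cyp2d12, neighbours on chromosome 15, was 2.66, 3.95 and 4.53 in knockout kidneys, against 2.26, 2.49 and 1.95 in wild-type kidneys. The groups did not overlap. The ratio averaged 3.71 ± 0.957 in knockout and 2.24 ± 0.269 in wild-type kidneys (SD, n = 3 each). This ratio was chosen after its values were seen and was not tested.

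Nr1i3, the receptor CAR, which is known to drive Cyp2b genes in liver, was under the filter at 0.254, 0.294 and 0.0970 FPKM in knockout kidneys, against 0.0877, 0.0289 and 0.0542 FPKM in wild-type kidneys. The groups did not overlap, and without a filter 2.62% of all genes lay apart higher. Cyp2b10, the best known target of CAR, had 0.0658, 0.161 and 0.309 FPKM in knockout and 0.331, 0.0714 and 0.0566 FPKM in wild-type kidneys. Its groups overlapped. Both genes were chosen after their values were seen.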
